A study of Saccharomyces cerevisiae with 9 samples.

Results

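The yeast cell wall is built on a mesh of β-1,3-glucan to which β-1,6-glucan, mannoproteins and chitin are attached. A plasma membrane synthase makes the β-1,3 chains from UDP-glucose, glucanosyltransferases outside the membrane elongate and branch them, and glucanases trim them as the cell grows. Salt shock draws water from the cell and changes the load on this layer, and wall synthesis is also tied to bud growth, which pauses after a shock. The 10 genes described here encode the catalytic subunits of the synthase (FKS1, GSC2), the GAS family of glucanosyltransferases (GAS1, GAS2, GAS3, GAS4, GAS5), a protein of β-1,6-glucan synthesis (KRE6) and glucan-modifying enzymes of the wall (BGL2, EXG1). They were chosen by name, with earlier results of these data known. All 10 of them were among the 6942 features of the array table and had a value on every array.

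The arrays came from Saccharomyces cerevisiae of the BY4741 background, grown in rich medium (YPD) at 30°C. Each 2-colour array set cDNA from a culture held for 30 min in 0.7 M NaCl against cDNA of the same strain before stress. There were 2 arrays of ckb12, in which CKB1 and CKB2, encoding the regulatory subunits of protein kinase CK2, are deleted, and 7 arrays of wild type (WT). The ckb12 strain was a single construct obtained from another laboratory. Sets A and B each paired 1 ckb12 array with 1 WT array (ckb12 replicates 1 and 2, WT replicates 8 and 9), WT replicates 10, 11 and 12 had set letters of their own, and WT replicates 1 and 2 had none. Nothing in the labels says whether replicates were separate cultures on separate days. The study's methods speak of biological replicates of the wild type and of day-to-day variation between paired samples. They do not say which of these arrays shared a day. The p-values from limma thus measure the spread between these arrays, moderated over features.

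Each value compares salt-treated with unstressed signal on a log2 scale, so 1 stands for a doubling and -1 for a halving, with each array centred near 0. The table itself states neither the log base nor the direction, which were taken from the study's legends and methods. Array medians lay between -0.00118 and 0.00016, between 6205 and 6812 features had a value on an array, and 6129 had one on all 9. The SD across features was 1.22 to 1.34 on 8 arrays and 1.41 on WT replicate 12, whose source name calls it a mutant although its title and genotype say WT. Pairs of WT arrays correlated across features at r between 0.884 and 0.977 (21 pairs, features not independent). Ratios carry no transcript level, so the genes could not be ordered by abundance, and precision is limited by how many arrays there are. CKB1 showed 0.97 and 0.44 in ckb12 and lay between -0.88 and -0.38 on the WT arrays, and CKB2 had 0.82 and 0.71 in ckb12 against -0.47 to 0.10 in WT. The arrays thus separated as their labels do, although a ratio within a strain cannot show a deletion.

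In WT, salt moved the glucan genes in both directions, and by more than the typical feature. In limma with Benjamini-Hochberg adjustment over 6129 features, called at an adjusted p below 0.05, 4 of the 10 genes rose, 5 fell and 1 was not called. Over all features 36.5% rose and 40.6% fell, together 77.1%, so the number of calls was near the background. The median size of the mean change was 1.10 for the 10 genes on the log2 scale and 0.56 for all features. This contrast was not tested, and the genes were chosen with earlier results of these data known. GSC2 rose most and GAS3 and GAS1 fell most, which placed their means at the 93.8th, 5.82th and 6.15th percentiles of all features. All genes but GAS5 had 1 sign on the 7 WT arrays (9 of 10), beside 67.3% of all features.

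**Figure D1:**
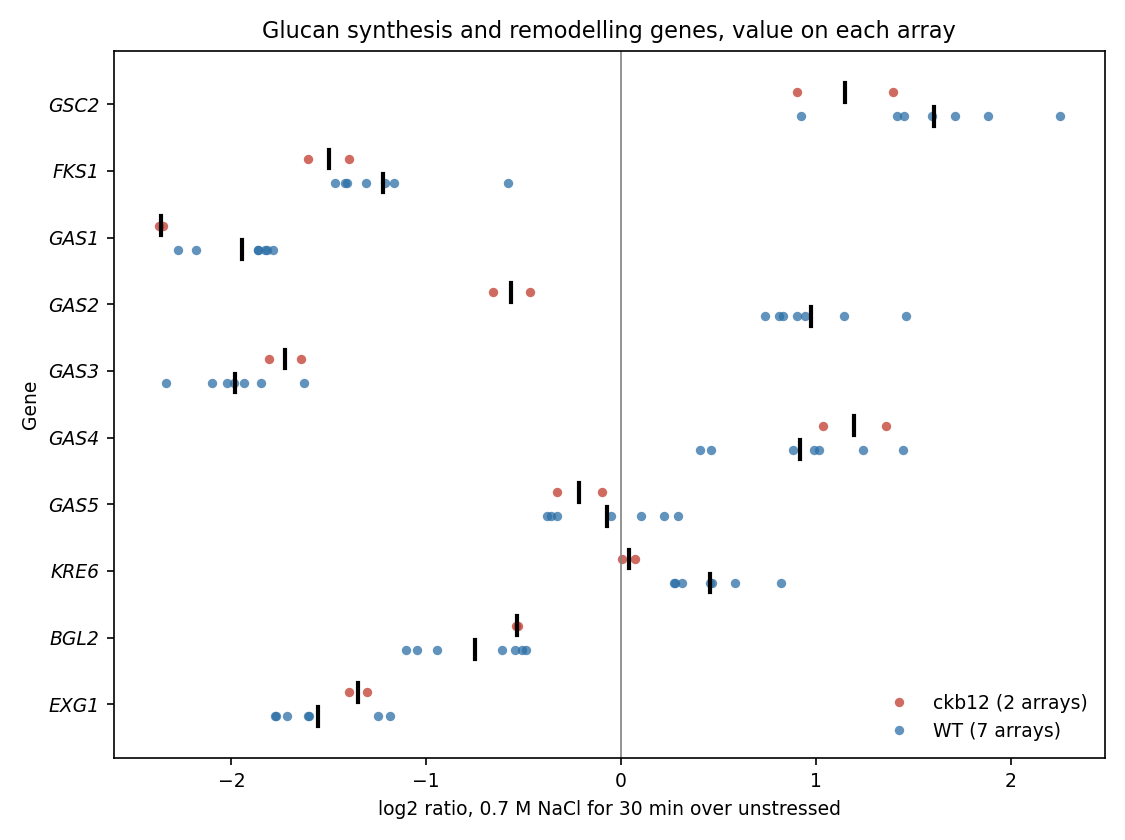
The log2 ratio of NaCl-treated over unstressed signal (horizontal axis) is plotted for each of the 10 genes on each array, with 2 ckb12 arrays above 7 WT arrays in each row and a black line at the group mean. GSC2, GAS2, GAS4 and KRE6 lie to the right of 0 in WT, and FKS1, GAS1, GAS3, BGL2 and EXG1 lie to the left. GAS2 is the only gene whose ckb12 points are on the other side of 0 from all its WT points.

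The synthase genes moved apart. FKS1 (YLR342W) encodes the subunit that serves growing cells on glucose, and GSC2 (YGR032W), also called FKS2, encodes the alternative subunit that is known to be induced by wall stress, calcium signalling and starvation. GSC2 had log2 ratios of 1.40 and 0.90 on the ckb12 arrays, against a lowest value of 0.92, a median of 1.60 and a highest of 2.25 on the WT arrays. All 9 values were above 0, and the ranges of the strains overlapped. Its WT mean was 1.61 ± 0.41 (SD, n = 7), a 3.04-fold rise (adjusted p 1.28e-06, limma with Benjamini-Hochberg). FKS1 had -1.40 and -1.60 on the ckb12 arrays, against a lowest of -1.47, a median of -1.31 and a highest of -0.58 on the WT arrays. All 9 values were below 0, and WT replicate 12 stood above the other WT arrays. Its WT mean was -1.22 ± 0.30 (SD, n = 7), a 2.33-fold fall (adjusted p 1.58e-06, limma with Benjamini-Hochberg). How the array design kept tiles of these closely related genes apart is not given in the sources used here.

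Among the glucanosyltransferases, which cut β-1,3-glucan chains and join them to others, the change differed from gene to gene. GAS1 (YMR307W), the main family member of growing cells, had -2.35 and -2.37 in ckb12, against a lowest of -2.27, a median of -1.86 and a highest of -1.79 in WT. Both ckb12 values lay below every WT value. In WT it averaged -1.94 ± 0.20 (SD, n = 7), a 3.85-fold fall (adjusted p 5.53e-09, limma with Benjamini-Hochberg). GAS3 (YMR215W) had -1.81 and -1.64 in ckb12, against a lowest of -2.33, a median of -1.99 and a highest of -1.63 in WT. The ckb12 values lay in the upper part of the WT range. The WT mean of GAS3 was -1.98 ± 0.22 (SD, n = 7), a 3.94-fold fall and the lowest of the 10 genes.

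GAS5 (YOL030W), like GAS1 a vegetatively expressed family member, had -0.33 and -0.10 in ckb12, against a lowest of -0.38, a median of -0.05 and a highest of 0.29 in WT. It was below 0 on 4 WT arrays and above 0 on 3, averaged -0.072 ± 0.29 (SD, n = 7) and was not called (adjusted p 0.524, limma with Benjamini-Hochberg). On the 5 WT arrays with a set letter alone its mean had the other sign, 0.040.

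GAS2 (YLR343W) and GAS4 (YOL132W) are both known for their part in the spore wall. GAS4 had 1.36 and 1.04 in ckb12, against a lowest of 0.40, a median of 0.99 and a highest of 1.45 in WT, with overlapping groups. It averaged 0.92 ± 0.38 in WT (SD, n = 7), a 1.89-fold rise (adjusted p 5.81e-05, limma with Benjamini-Hochberg). GAS2 had -0.47 and -0.66 in ckb12, against a lowest of 0.74, a median of 0.90 and a highest of 1.46 in WT. The groups did not overlap and lay on opposite sides of 0. GAS2 averaged 0.98 ± 0.25 in WT (SD, n = 7), a 1.97-fold rise (adjusted p 3.31e-06, limma with Benjamini-Hochberg). The cultures were in log phase in rich medium. Without intensities, whether the signal of GAS2 and GAS4 stood over background could not be judged, in either strain.

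KRE6 (YPR159W), whose membrane protein is needed for β-1,6-glucan, had 0.07 and 0.00 in ckb12, against a lowest of 0.27, a median of 0.46 and a highest of 0.82 in WT. Every WT value lay above both ckb12 values. Its WT mean of 0.46 ± 0.20 (SD, n = 7) was the smallest called in WT among the 10 genes, a 1.37-fold rise (adjusted p 0.000371, limma with Benjamini-Hochberg). The glucan-modifying enzymes fell in WT. EXG1 (YLR300W), the main secreted exo-β-1,3-glucanase, had -1.30 and -1.39 in ckb12, against a lowest of -1.78, a median of -1.61 and a highest of -1.18 in WT. BGL2 (YGR282C), an abundant wall enzyme that cuts and rejoins β-1,3-glucan, had -0.53 and -0.54 in ckb12, against a lowest of -1.10, a median of -0.61 and a highest of -0.49 in WT. For both genes the ckb12 values lay inside the WT range. WT means were -1.56 ± 0.24 for EXG1, a 2.94-fold fall, and -0.75 ± 0.27 for BGL2, a 1.68-fold fall (SD, n = 7 each, adjusted p 7.09e-08 and 3.82e-05, limma with Benjamini-Hochberg).

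In ckb12, with the spread shared over all 9 arrays, limma and Benjamini-Hochberg adjustment called 2 of the 10 genes higher, 6 lower and 2 neither. Over all features 27.4% rose and 35.7% fell, together 63.0%. GSC2 and GAS4 rose, with means of 1.15 ± 0.35 and 1.20 ± 0.23 (SD, n = 2 each). GAS1, GAS3, FKS1, EXG1, GAS2 and BGL2 fell, with GAS1 lowest at -2.36 ± 0.01 (SD, n = 2), a 5.14-fold fall. GAS5 averaged -0.21 ± 0.16 (adjusted p 0.320) and KRE6 0.04 ± 0.05 (adjusted p 0.825, SD, n = 2 each, limma with Benjamini-Hochberg). With 1 ckb12 array left, and its spread assumed equal to that of WT, GSC2 was not called without ckb12 replicate 1 (adjusted p 0.0555), GAS2 not without replicate 2 (adjusted p 0.139) and BGL2 not without either (adjusted p 0.103 and 0.114, limma with Benjamini-Hochberg).

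To see whether related enzymes respond alike, the within-array difference of their log2 ratios was taken for 5 pairs. The test was an exact 2-sided sign-flip permutation test over the 7 WT arrays, whose smallest possible p is 0.0156, with Benjamini-Hochberg adjustment over the 5 pairs. GSC2 minus FKS1 was 2.79 and 2.50 in ckb12, and in WT it lay between 2.39 and 3.29 with a mean of 2.83 ± 0.31 (SD, n = 7). The ratio of GSC2 to FKS1 transcript thus rose 7.10-fold in WT, with the same sign on 7 of 7 arrays (exact permutation p 0.0156, adjusted 0.0260), and the strains overlapped. GSC2 was above 0 and FKS1 below 0 on every WT array, so this p was fixed by those signs. WT replicate 12, where both genes stood high, was near the middle of the WT range of the difference.

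GAS3 minus GAS5 was -1.48 and -1.54 in ckb12, just above the WT range of -2.13 to -1.56, and averaged -1.91 ± 0.19 in WT (SD, n = 7, exact permutation p 0.0156, adjusted 0.0260). Every WT value of GAS3 lay below every WT value of GAS5, so this p was fixed by those ranges. EXG1 minus SPR1 was -1.83 and -2.02 in ckb12 and averaged -2.66 ± 0.53 in WT (SD, n = 7, exact permutation p 0.0156, adjusted 0.0260). SPR1 (YOR190W), a sporulation-linked relative of EXG1, had 0.52 and 0.62 in ckb12, against a lowest of 0.62, a median of 1.19 and a highest of 1.73 in WT, all above 0. EXG1 was below 0 on every WT array, so the p of EXG1 minus SPR1 was also fixed by the signs. KRE6 minus SKN1 was -1.27 and -1.40 in ckb12, below the WT range of -0.91 to 0.02, and averaged -0.58 ± 0.37 in WT, below 0 on 6 of 7 arrays (SD, n = 7, exact permutation p 0.0312, adjusted 0.0391). SKN1 (YGR143W), a relative of KRE6, rose to 1.37 ± 0.04 in ckb12 (SD, n = 2) and 1.04 ± 0.26 in WT (SD, n = 7). GAS2 minus GAS4 was -1.83 and -1.69 in ckb12 and between -0.18 and 0.35 in WT, with a WT mean of 0.057 ± 0.21 (SD, n = 7, exact permutation p 0.516). In WT this pair was the one that did not pass. As for GAS3 minus GAS5 and KRE6 minus SKN1, both ckb12 values of GAS2 minus GAS4 lay outside the WT range. GAS2 and KRE6 did so by themselves, and the share among other pairs of features was not computed. The strain contrast of these pairs was not tested.

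**Figure D2:**
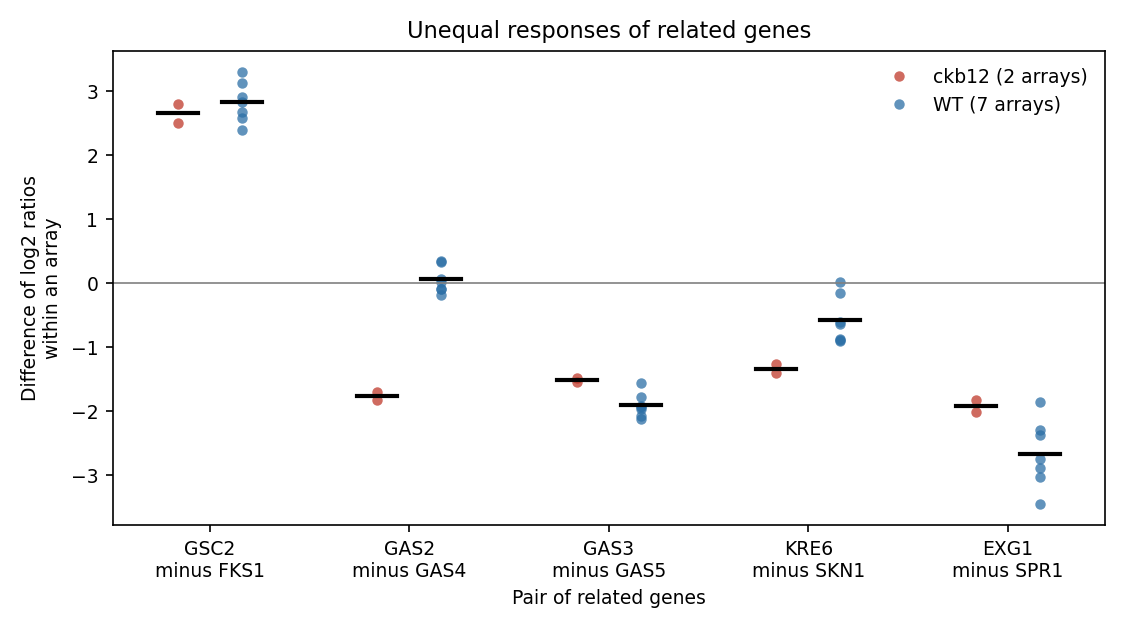
The difference of log2 ratios within an array (vertical axis) is plotted for 5 pairs of related genes, with 2 ckb12 arrays left of 7 WT arrays and a black line at each mean. GSC2 minus FKS1 averages 2.65 in ckb12 and 2.83 in WT, whereas GAS2 minus GAS4 averages -1.76 in ckb12 and 0.057 in WT.

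The strain comparison asked whether the response of these genes differed between ckb12 and WT. Each ratio is relative to the unstressed culture of its own strain. A strain difference before stress and one under salt therefore cannot be told apart. With a single ckb12 construct, loss of the CK2 regulatory subunits and other features of that strain cannot be told apart either. Each ckb12 array was compared with the WT array that carried its set letter, in a fit blocked on the letter. This test has 1 residual degree of freedom, and limma with Benjamini-Hochberg adjustment called 0 of the 10 genes and 1 of 6600 features (0.0152%). An unadjusted p below 0.05 was reached by 2 of the 10 genes, GAS1 and GAS2, and by 16.6% of features. When all 7 WT arrays entered, unblocked, limma called 1 of the 10 genes, GAS2, which was lower in ckb12. Of all features 1.14% were called, 0.359% higher and 0.783% lower, and 3 of the 10 genes and 15.3% of features reached an unadjusted p below 0.05. Both ckb12 values lay outside the WT range for 3 of the 10 genes, GAS1, GAS2 and KRE6, all below it. Of all features 17.4% lay outside, 326 above and 738 below, and the excess of the 10 genes over this background was not tested.

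For GAS2 the set A difference was -1.41 and the set B difference -1.56, which averaged -1.49 (SE 0.15, 95% interval -1.87 to -1.11). The adjusted p of this paired difference was 0.0915 (limma, Benjamini-Hochberg), which misses the threshold. The same paired fit on features with an open reading frame name only called it, at an adjusted p of 0.000183, with 572 features called in place of 1. Against all 7 WT arrays the difference was -1.54 (SE 0.19, 95% interval -1.95 to -1.13, adjusted p 0.0113, limma with Benjamini-Hochberg), larger in size than that of 99.7% of features. The call held without WT replicate 8 or 9 (adjusted p 0.0232 and 0.0245, limma with Benjamini-Hochberg). Other WT arrays were not left out of this fit, among them WT replicate 12, which held the highest WT value of GAS2. It was lost with a single ckb12 array left, at -1.63 without ckb12 replicate 1 and -1.45 without replicate 2 (adjusted p 0.103 and 0.150, limma with Benjamini-Hochberg). A change of sign of this kind, with 1 sign on all 7 WT arrays and the other on both ckb12 arrays, was seen for 0.963% of features and for 1 of the 10 genes.

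**Figure D3:**
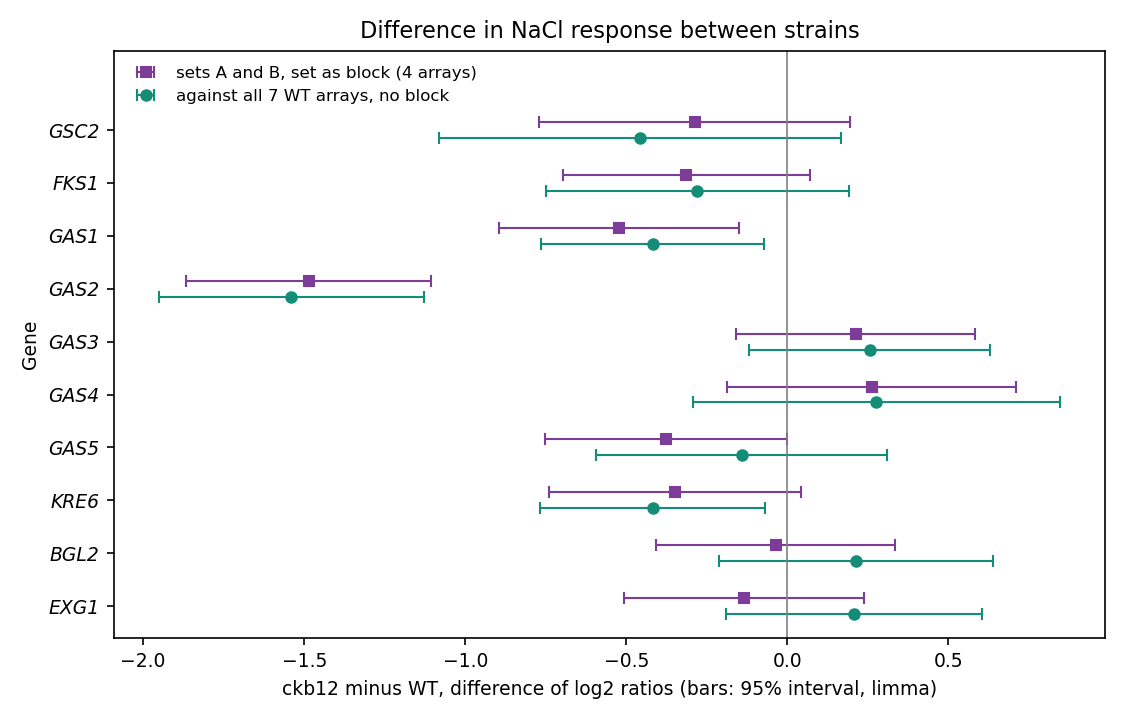
The difference in log2 ratio between ckb12 and WT (horizontal axis, ckb12 minus WT) is plotted for the 10 genes with its 95% interval from limma, as squares for the 4 arrays of sets A and B and as circles for all 9 arrays. GAS2 stands apart at -1.49 and -1.54, and the other 9 genes lie between -0.52 and 0.28.

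For the other 9 genes the paired differences ran from -0.52 for GAS1 to 0.26 for GAS4. GAS1 was lower by similar amounts in both sets, at -0.54 for A and -0.51 for B, with an interval of -0.89 to -0.15 and an adjusted p of 0.193 (limma, Benjamini-Hochberg). Against all 7 WT arrays GAS1 differed by -0.42 (interval -0.77 to -0.071) and KRE6 by -0.42 (interval -0.77 to -0.068), and neither was called (adjusted p 0.238 and 0.240, limma with Benjamini-Hochberg). GSC2 gave -0.021 for set A and -0.55 for set B, and its interval against 7 WT arrays, -1.08 to 0.17, was the widest of the 10. FKS1 differed by -0.28 against 7 WT arrays, with an interval of -0.75 to 0.19. Against all 7 WT arrays the intervals of GSC2 and FKS1 span 0 and those of GAS1 and KRE6 lie below it. In the paired fit the KRE6 interval, -0.74 to 0.043, spans 0. A missed threshold after adjustment thus does not show equal responses. BGL2 and EXG1 had differences of -0.036 and -0.13 in the paired fit and 0.21 and 0.21 against all 7 WT arrays, so the direction depended on which WT arrays were used.

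FKS1 and GAS2 lie close together on chromosome XII of the RefSeq R64 assembly, with the small uncharacterised gene YLR342W-A between them. YLR342W-A was looked at after the values of its neighbours were known. It had -0.77 and -1.06 in ckb12, against a lowest of 0.06, a median of 0.52 and a highest of 0.87 in WT. As for GAS2, the groups did not overlap and had opposite signs. It differed by -1.33 against all 7 WT arrays (SE 0.22, adjusted p 0.0206) and by -1.47 in the paired fit (SE 0.16, adjusted p 0.103, limma with Benjamini-Hochberg). FKS1 on the other side of it differed by -0.28. The next feature with values beyond GAS2, the ribosomal protein gene RPL26A, averaged -1.81 ± 0.18 in ckb12 (SD, n = 2) and -2.04 ± 0.22 in WT (SD, n = 7), and differed by 0.23 (adjusted p 0.563, limma with Benjamini-Hochberg). The sporulation gene SPO77, before FKS1, had a value on 6 WT arrays and averaged 0.54 ± 0.05 in ckb12 (SD, n = 2) and 0.20 ± 0.61 in WT (SD, n = 6). The strand and the tiles behind each value are not given in the sources used here, so signal from 1 long transcript and from separate genes cannot be told apart.

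**Figure D4:**
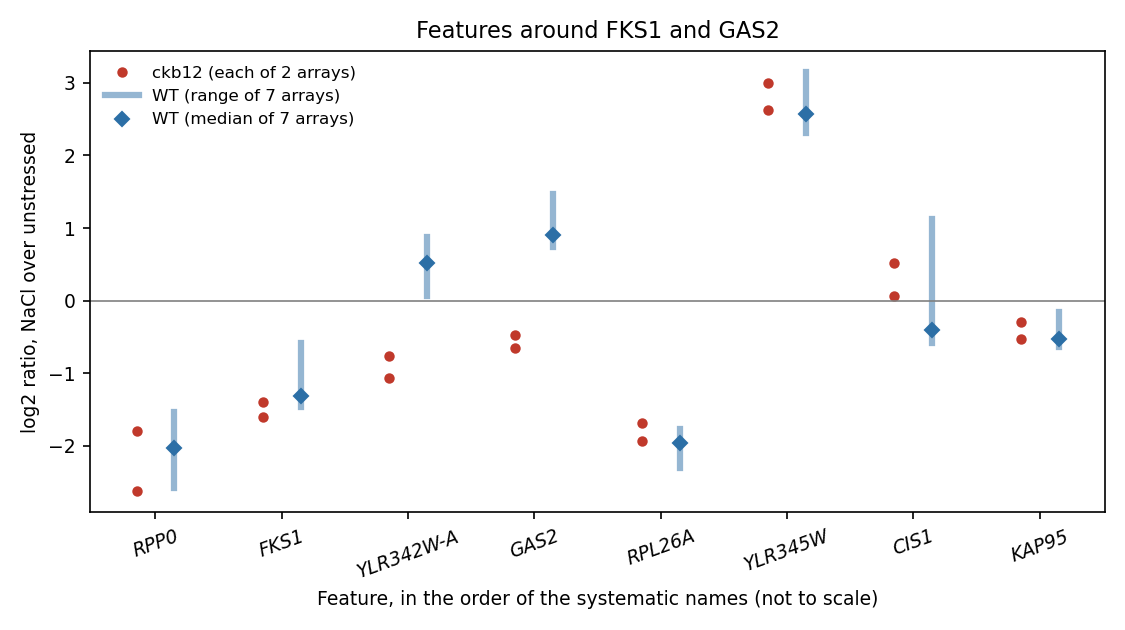
The log2 ratio of NaCl-treated over unstressed signal (vertical axis) is plotted for 8 features in the order of their systematic names, with each of 2 ckb12 arrays as a point left of the range (bar) and median (diamond) of 7 WT arrays; SPO77 and features without a value on all 9 arrays are left out. YLR342W-A and GAS2 are below 0 in ckb12 and above 0 in WT, while FKS1 and RPL26A are below 0 in both strains.

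On chromosome XIII the gene beside GAS1 is FKS3. FKS3 (YMR306W), which resembles the synthase subunits, averaged -0.56 ± 0.11 in ckb12 (SD, n = 2) and 0.23 ± 0.48 in WT (SD, n = 7). Both ckb12 values lay below the WT range, yet the difference of -0.79 was not called (adjusted p 0.257, limma with Benjamini-Hochberg).

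The arrays differed in how they placed the whole group of genes. WT replicate 12 held the highest WT value of 7 of the 10 genes, beside 22.8% of all features, and was above the WT median for 9, rising and falling genes alike, where 42.6% of all features were above their WT median on that array. WT replicate 10 held the lowest WT value of 6 genes, for which the share over all features was not computed. It was above the WT median for none of the 10 genes, where 44.0% of all features were above their WT median on that array. The mean ratio over the 10 genes was -0.54 and -0.64 on the ckb12 arrays and ran from -0.58 on WT replicate 10 to -0.0079 on WT replicate 12. Without WT replicate 12 the WT mean of FKS1 was -1.33, and all 9 calls in WT held with any single WT array left out. Whether the source name of WT replicate 12 bears on these values was not tested. The between-array SD in WT had a median of 0.26 for the 10 genes and 0.23 for all features, with GSC2 and GAS4 the most variable at 0.41 and 0.38.

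The set letter is the one batch that the labels give. Between the 5 WT arrays with a letter and the 2 without, limma with Benjamini-Hochberg adjustment called 0 of the 10 genes, and 0 at an unadjusted p below 0.05, beside 0.457% and 13.2% of features. Over all features 21 were higher and 7 lower on the arrays with a letter, and after scaling to an equal median absolute deviation 19 were higher and 16 lower. GAS5 and BGL2 had the largest differences. GAS5 averaged 0.040 ± 0.26 with a letter (SD, n = 5) and -0.35 ± 0.04 without (SD, n = 2), and BGL2 -0.65 ± 0.26 with and -0.997 ± 0.07 without (adjusted p 0.412 and 0.466, limma with Benjamini-Hochberg). GAS2 averaged 0.98 in both.

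The rest of the pathway was read from lists of genes by role. Of 12 genes for glucan synthase and its regulators, FKS1 and GSC2 included, 5 rose, 4 fell and 3 were not called in WT, with a median of 0.18 beside -0.042 over all features. BAG7, a GTPase-activating protein for Rho1, the GTPase that switches the synthase on, averaged 5.52 ± 0.12 in ckb12 (SD, n = 2) and 3.64 ± 1.35 in WT (SD, n = 7). Its strain difference was 1.88 against 7 WT arrays and 0.63 within sets A and B, and was called in neither fit (adjusted p 0.303 and 0.246, limma with Benjamini-Hochberg). BAG7 averaged 4.28 on WT arrays with a set letter and 2.03 on those without. ROM1, an exchange factor that activates Rho1, rose to 2.14 ± 0.05 in ckb12 and 1.84 ± 0.19 in WT. LRG1, another GTPase-activating protein for Rho1, averaged -0.90 ± 0.04 in ckb12 and -0.74 ± 0.22 in WT, and SMI1, a regulator of wall synthesis, -0.64 ± 0.15 in ckb12 and -0.78 ± 0.12 in WT (SD, n = 2 ckb12 and 7 WT). RHO1 itself averaged 0.28 ± 0.06 in ckb12 and 0.12 ± 0.21 in WT and was called in neither strain (adjusted p 0.116 and 0.199, limma with Benjamini-Hochberg).

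Of 12 genes of β-1,6-glucan synthesis, KRE6 included, 7 rose, 2 fell and 3 were not called in WT, with a median of 0.32. After SKN1 the largest rise was that of BIG1, an endoplasmic reticulum protein needed for this polymer, at 0.54 ± 0.01 in ckb12 and 0.78 ± 0.09 in WT. The falls were those of CNE1, the yeast calnexin, at -0.61 ± 0.16 in ckb12 and -0.67 ± 0.20 in WT, and CWH41, glucosidase I of glycoprotein folding, at -0.68 ± 0.11 and -0.63 ± 0.13 (SD, n = 2 ckb12 and 7 WT). Of 11 other glucanases and remodelling enzymes 3 rose and 8 fell in WT, the lowest list median at -1.06. SUN4 and SIM1, of a family of glucan-modifying proteins linked to cell separation, fell to -2.03 ± 0.10 and -1.97 ± 0.54 in ckb12 and to -2.02 ± 0.34 and -1.55 ± 0.41 in WT. SPR1 rose most in WT, followed among genes above 0 on all 7 WT arrays by ACF2, an endo-β-1,3-glucanase, at 0.23 ± 0.03 in ckb12 and 0.38 ± 0.12 in WT (SD, n = 2 ckb12 and 7 WT).

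The cell wall integrity pathway relays wall stress through Rho1 and Pkc1 to the MAP kinase Slt2. Of its 19 genes 9 rose, 4 fell and 6 were not called in WT, with a median of 0.12. SDP1, a phosphatase that acts on Slt2, rose to 3.51 ± 0.13 in ckb12 and 3.41 ± 0.32 in WT, and the sensor MTL1 to 1.64 ± 0.05 and 1.48 ± 0.34. SWI6, a cofactor of Slt2-controlled and cell cycle transcription, fell to -0.49 ± 0.19 in ckb12 and -0.59 ± 0.24 in WT, and the kinase BCK1 to -0.61 ± 0.18 and -0.49 ± 0.14 (SD, n = 2 ckb12 and 7 WT). RLM1, the factor through which Slt2 is known to act on many wall genes, averaged -0.17 ± 0.22 in ckb12 and -0.25 ± 0.24 in WT. Of 6 calcineurin pathway genes, a route known to act on GSC2, 3 rose and 3 were not called in WT. RCN2, a calcineurin regulator, rose to 3.14 ± 0.39 in ckb12 and 2.98 ± 0.29 in WT, and the catalytic subunit gene CMP2 to 0.74 ± 0.09 and 0.94 ± 0.16 (SD, n = 2 ckb12 and 7 WT). For UDP-glucose, the substrate of the synthase, PGM2 and UGP1 rose to 4.27 ± 0.13 and 2.79 ± 0.13 in ckb12 and to 5.40 ± 0.50 and 2.82 ± 0.23 in WT, while PGM1 fell to -0.47 ± 0.02 and -0.40 ± 0.19 (SD, n = 2 ckb12 and 7 WT). PGM2 and UGP1 also serve trehalose and glycogen synthesis. No gene of these 6 lists other than the 10 described was called between strains, paired or against 7 WT arrays. This does not show equal responses. PGM2 differed by -1.13 against 7 WT arrays, with both ckb12 values below the WT range (adjusted p 0.119, limma with Benjamini-Hochberg). The same held for SCW10, of the other glucanases, at -0.77 (adjusted p 0.101, limma with Benjamini-Hochberg). KNH1, of the β-1,6-glucan list, differed by 0.90, with both ckb12 values above the WT range (adjusted p 0.147, limma with Benjamini-Hochberg).

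**Figure D5:**
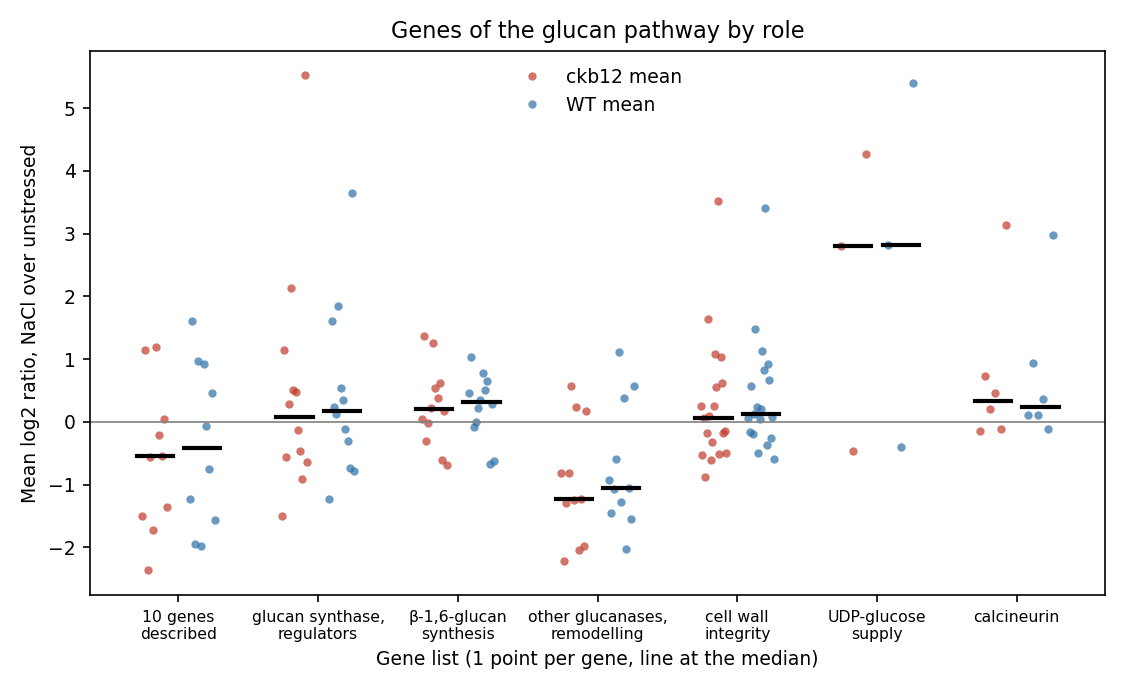
The mean log2 ratio of each gene (vertical axis) is plotted by list, with the ckb12 mean of 2 arrays left of the WT mean of 7 arrays and a black line at the list median. The other glucanases have the lowest medians, -1.22 in ckb12 and -1.06 in WT, and the UDP-glucose genes the highest.

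For the gene with the highest and the gene with the lowest WT mean, the features with the nearest values over all 9 arrays were listed, by root mean square difference of log2 ratios. Nearest to GSC2 were HER1 (0.19), AVO2 (0.25), YIL108W (0.25), GUD1 (0.28) and RRT6 (0.29). Nearest to GAS3 were RPL4B (0.17), URA5 (0.18), PRS1 (0.18), RPL1B (0.19) and ADH3 (0.19), of which RPL4B and RPL1B encode proteins of the large ribosomal subunit and URA5 and PRS1 enzymes of nucleotide synthesis. These distances describe likeness over 9 arrays that share most of their changes and carry no test.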

How the data were processed

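The authors hybridised labelled cDNA of treated and unstressed cultures to 2-colour tiled NimbleGen arrays, normalized the signals and deposited 1 log2 ratio per feature and array, with replicates apart and missing values blank. How tiles were combined, background correction and the genome build of the array are not given in the sources used here, so no coordinates or sequences are printed. The labels put the treated sample in the same dye on all 9 arrays, while the methods mention reversed dyes on selected arrays. Intensities were not used here.

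The deposited log2 ratios were fitted without further normalization in R 4.3.3 with limma 3.58.1 (lmFit, eBayes) over features with a value on every array of the fit. Benjamini-Hochberg adjustment ran over all of these, and 0.05 was the threshold. The WT response used 7 arrays against 0, the ckb12 response a group-means model of 9 arrays, and the strain difference 4 arrays, blocked on set letter A or B, since the methods pair each mutant with a wild type. Pairing comes from these letters, and over features the 2 strains' within-group deviations correlated by letter at r = -0.0844. Related genes were compared by exact sign-flip permutation. Fits were tested on simulated data with known answers, in which the paired fit missed the smaller of the planted differences, so few calls from it do not show similar strains. Alternatives were quantile normalization, an equal median absolute deviation, missing values kept, a minimum change of 1, a q value, ORF names only, set-lettered arrays only, other blocks and leaving out single arrays.

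Symbols and neighbours were looked up in RefSeq (assembly R64) by locus tag, which matched 6023 of 6942 IDs. WSC1 is SLG1 there. The genes and lists (70 genes, all on 9 arrays) were written from memory and chosen with earlier results of these data known. Beside the 10 genes, CKB1, CKB2, SKN1 and SPR1, the text names up to 2 rises and 2 falls per list, largest by WT mean among calls with 1 sign on all 7 WT arrays. RHO1, RLM1, FKS3, SCW10, KNH1, YLR342W-A, RPL26A and SPO77 were named after their values were seen.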

Additional observations from a re-analysis of the deposited data

Results flagged for a closer look

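FKS1 on WT replicate 12 was -0.58, far from the other 6 WT arrays, which lay between -1.47 and -1.16. The gap was 0.658 of the whole range, above Dixon's 95% critical value for 7 values. All 10 genes were tested this way, and chance alone marks about 1 group in 20.

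GAS2 differed between strains in its response to NaCl, by -1.54 in ckb12 minus WT against all 7 WT arrays (adjusted p 0.0113, limma with Benjamini-Hochberg), with both ckb12 arrays below 0 and all 7 WT arrays above it. Paired by set it was not called (adjusted p 0.0915), nor without ckb12 replicate 1 or 2 (adjusted p 0.103 and 0.150, limma with Benjamini-Hochberg).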

How the results depend on the processing

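With a minimum log2 change of 1 there were 1761 calls among 6129 features in WT, with 5 of the 10 genes called (FKS1, GSC2, GAS1, GAS3 and EXG1). In ckb12 there were 1945 calls among 6129 features, with 6 of the 10 genes called. In the strain comparison, paired by set, 1 feature and none of the 10 genes was called. Without the replicate block the 4 arrays gave 0 calls. Against all 7 WT arrays there were 70, and a random block by set gave 95. The paired fit on features with an ORF name only gave 572 among 6377 features, GAS2 among them (adjusted p 0.000183, limma with Benjamini-Hochberg). Each of these 3 fits called 1 of the 10 genes, GAS2. Leaving out single arrays of sets A and B in the unblocked fit gave between 0 calls, without either ckb12 array, and 44, with 0 to 1 of the 10 genes. The count between WT arrays with and without a set letter ran from 3 to 108 with single arrays left out.

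The pair differences with single WT arrays left out ran from 2.75 to 2.90 for GSC2 minus FKS1, -1.97 to -1.87 for GAS3 minus GAS5, -0.68 to -0.53 for KRE6 minus SKN1 and -2.80 to -2.53 for EXG1 minus SPR1. Without WT replicate 1 all 4 kept their calls (adjusted exact permutation p 0.0391). Without any other WT array KRE6 minus SKN1 had an adjusted p of 0.0781 and the other 3 pairs 0.0521. Leaving out an array raises the smallest p that the sign-flip test can give. Each of the other 3 pairs kept its sign on every WT array, so each stayed at that smallest p. Whether their adjusted p passed turned on KRE6 minus SKN1, which was positive only on WT replicate 1. The lost calls of these 3 pairs therefore cannot show dependence on a single array.

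Only values that were not called changed sign. GAS5 in WT was 0.040 on set-lettered arrays. For the strain difference BGL2 was 0.022 after quantile normalization, 0.011 at equal median absolute deviation, 0.21 against all 7 WT arrays and 0.17 with a random block, and EXG1 0.21 and 0.15 in the last 2. With single arrays left out of the unblocked fit against WT, BGL2 was 0.21 to 0.26 and EXG1 0.16 to 0.27, the sign that this fit gave with all arrays. Between set-lettered and other WT arrays the ranges were -0.17 to 0.16 for GAS2, -0.031 to 0.15 for GAS3, -0.29 to 0.49 for GAS4 and -0.023 to 0.13 for EXG1. The cause was not tested. Without intensities, signal over background could not be judged.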
